A study of Homo sapiens with 12 samples.

Results

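The 14-3-3 family comprised 7 genes in the count table, namely SFN, YWHAB, YWHAE, YWHAG, YWHAH, YWHAQ and YWHAZ, out of 58307 rows that name a gene. Members were matched by exact gene symbol, and the family was chosen by the lower SFN transcript level with rapamycin in these same libraries. The values of SFN in the rapamycin comparisons are therefore given as a description without a test, whereas the 6 YWHA genes were tested there. Both A375 and SK-MEL-28 are long-cultured cell lines from human melanomas, and each received etoposide or etoposide + rapamycin, with 3 polyA-enriched RNA-seq libraries in each of the 4 groups. Etoposide, present in all 12 libraries, traps topoisomerase II on DNA and leaves double-strand breaks. Rapamycin inhibits mTOR complex 1 and induces autophagy, and the study asked what it changes in cells under etoposide. Cells without etoposide and doses or times of treatment were not analysed here.

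14-3-3 proteins are small dimeric adaptors that bind serine- or threonine-phosphorylated sites on client proteins and so hold, shield or move them. They keep the mitotic phosphatase CDC25C, the apoptosis promoter BAD, the transcription factor FOXO3 and the transcriptional coactivator YAP1 in the cytoplasm while the sites are phosphorylated. SFN encodes 14-3-3 sigma, an isoform most abundant in epithelial cells and known as a p53 target that holds cells in G2 after DNA damage. The YWHA genes encode the beta (YWHAB), epsilon (YWHAE), gamma (YWHAG), eta (YWHAH), theta (YWHAQ) and zeta (YWHAZ) isoforms, which are present in most tissues.

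SFN lies on chromosome 1 (GRCh38, bases 26863149 to 26864456, plus strand) as a single exon of 1308 bases. YWHAH lies on chromosome 22 (bases 31944522 to 31957603, plus strand) with 2 exons in its canonical transcript. The other members lie on chromosomes 20 (YWHAB), 17 (YWHAE), 7 (YWHAG), 2 (YWHAQ) and 8 (YWHAZ). In A375, SFN and YWHAH had the largest changes in opposite directions with rapamycin, so their promoter windows are shown. In SK-MEL-28, YWHAZ rose slightly more than YWHAH (log2 fold change = 0.151 against 0.135) but had no matching window. The windows run from 250 bases before to 50 after the start (RefSeq, GRCh38.p14, 5′ to 3′ on the gene's strand). Capitals mark exact matches on either strand to a TATA box, spelled TATAAA, or a CCAAT box, spelled by its name. They also mark a GC box, spelled GGGCGG. The remaining motif is the cAMP response element, spelled TGACGTCA. Overlapping matches run together. The SFN window is chr1:26862899-26863198 on the plus strand and the YWHAH window is chr22:31944285-31944584 on the plus strand.
SFN promoter: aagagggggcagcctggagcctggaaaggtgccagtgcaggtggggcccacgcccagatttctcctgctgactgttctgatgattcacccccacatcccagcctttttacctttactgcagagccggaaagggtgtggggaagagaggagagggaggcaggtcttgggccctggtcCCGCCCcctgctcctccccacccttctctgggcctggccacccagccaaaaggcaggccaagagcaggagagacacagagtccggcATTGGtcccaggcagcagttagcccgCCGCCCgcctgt
YWHAH promoter: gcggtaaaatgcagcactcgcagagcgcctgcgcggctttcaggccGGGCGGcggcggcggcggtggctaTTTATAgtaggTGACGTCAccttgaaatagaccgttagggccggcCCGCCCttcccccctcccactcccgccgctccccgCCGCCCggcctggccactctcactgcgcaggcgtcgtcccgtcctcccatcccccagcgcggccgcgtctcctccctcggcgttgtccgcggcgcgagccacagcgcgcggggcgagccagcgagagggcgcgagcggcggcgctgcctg

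The SFN window held 7 CpG dinucleotides, against 29 to 44 in the 5 YWHA windows that matched, and against a median of 14 over all 35116 RefSeq windows of that length. It contained 1 CCAAT box and 2 GC boxes, motifs found in 34.6% and 45.0% of all windows. The YWHAH window, the richest in CpG of the 6 windows, contained 3 GC boxes, 1 TATA box and 1 cAMP response element, and the last motif occurred in 1.85% of all windows. The other YWHA windows held no TATA box and no cAMP response element, and none of the 6 held the E-box CACGTG, which 7.26% of windows contain. These matches describe the letters of the windows, and neither DNA methylation nor factor binding was measured. In the coding sequence, SFN shared 63.1% (with YWHAE) to 70.7% of aligned bases with the other members, and the closest pair was YWHAG and YWHAH at 78.8%. No stretch of 50 bases was shared between members. A share of the 50-base stretches of YWHAZ (13.3%), YWHAE (5.99%), YWHAH (3.35%) and YWHAQ (2.14%) also occurred in other genes. The 20 rows named as 14-3-3 pseudogenes held at most 0.155% of the counts of their parent gene, and 9 of them were at 0. The 2 with a mean of at least 10 counts, YWHABP2 and YWHAEP1, did not pass the test in any comparison.

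Library totals ranged from 28189501 to 32499337 counts, which exceeds the clean reads the study lists for each library, so a count is not a read as listed. SOX10 (166 to 579 CPM, counts scaled to library size) and S100B (56.7 to 106 CPM), markers of the melanocyte lineage, were present in all 12 libraries. However, the pigment markers PMEL (at most 2.99 CPM), MLANA (at most 1.37 CPM), TYR (at most 0.196 CPM), DCT (at most 2.16 CPM) and TYRP1 (at most 1.82 CPM) were near 0 throughout, including in the libraries labelled SK-MEL-28, a line known for its pigment antigens. Of 19025 genes tested under etoposide, 8.35% differed by more than 2-fold between the libraries of the 2 lines. With rapamycin added, 3.41% did so within A375 and 3.38% within SK-MEL-28. The median absolute log2 fold change was 0.236 between the lines, against 0.218 and 0.181 with rapamycin. SK-MEL-28 below means the libraries carrying that label. Of 21 epithelial genes, the defining markers EPCAM (at most 0.571 CPM), CDH1 (at most 0.316 CPM) and KRT5 (at most 0.264 CPM) were at or near 0 in every library. Others of the list were present, with KRT18 at 110 to 197 CPM, KRT8 at 48.3 to 111, PERP at 93.5 to 123 and KRT10 at 41.4 to 62.8, and 9 or 10 of the 21 had a mean over 1 CPM in each group. The summed level of the list, carried mostly by these 4 genes, was 428 to 459 CPM in A375 with etoposide and 443 to 463 CPM with rapamycin added, and 525 to 529 CPM and 496 to 519 CPM in SK-MEL-28. In bulk RNA, fewer cells expressing SFN and less SFN transcript per cell cannot be told apart. The study describes the libraries of a group as biological replicates, and the labels number them without saying whether they came from separate cultures. Unless they did, p-values measure only the spread between libraries, which may be technical.

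SFN was the least abundant member of the family in all 4 groups. Per kb of merged exons, the mean level in A375 with etoposide was 109 CPM per kb for YWHAE, 108 for YWHAQ, 100 for YWHAG, 95.1 for YWHAZ, 48.6 for YWHAB, 13.6 for YWHAH and 1.15 for SFN. Only YWHAE and YWHAQ, neighbours in this order, overlapped between libraries. In SK-MEL-28 with etoposide the level was 112 CPM per kb for YWHAE, 104 for YWHAG, 101 for YWHAQ, 79.4 for YWHAZ, 47.1 for YWHAB, 12.5 for YWHAH and 5.10 for SFN, and there YWHAG and YWHAQ overlapped. Both orders were the same after rapamycin was added. SFN thus made up 0.241% ± 0.0501 (SD, n = 3) of the family level per kb in A375 with etoposide and 0.0738% ± 0.0252 with rapamycin, against 1.11% ± 0.0948 and 0.206% ± 0.0658 in SK-MEL-28. The summed level of the 7 genes was 477 ± 7.80 and 445 ± 8.64 CPM per kb in A375, and 461 ± 8.56 and 454 ± 11.8 CPM per kb in SK-MEL-28 (SD, n = 3). The order among the YWHA genes depended on the length used: with the longest transcript, YWHAZ in A375 with etoposide reached 155 CPM per kb, above YWHAQ at 132, while SFN, whose length is the same by both, stayed last.

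**Figure D1:**
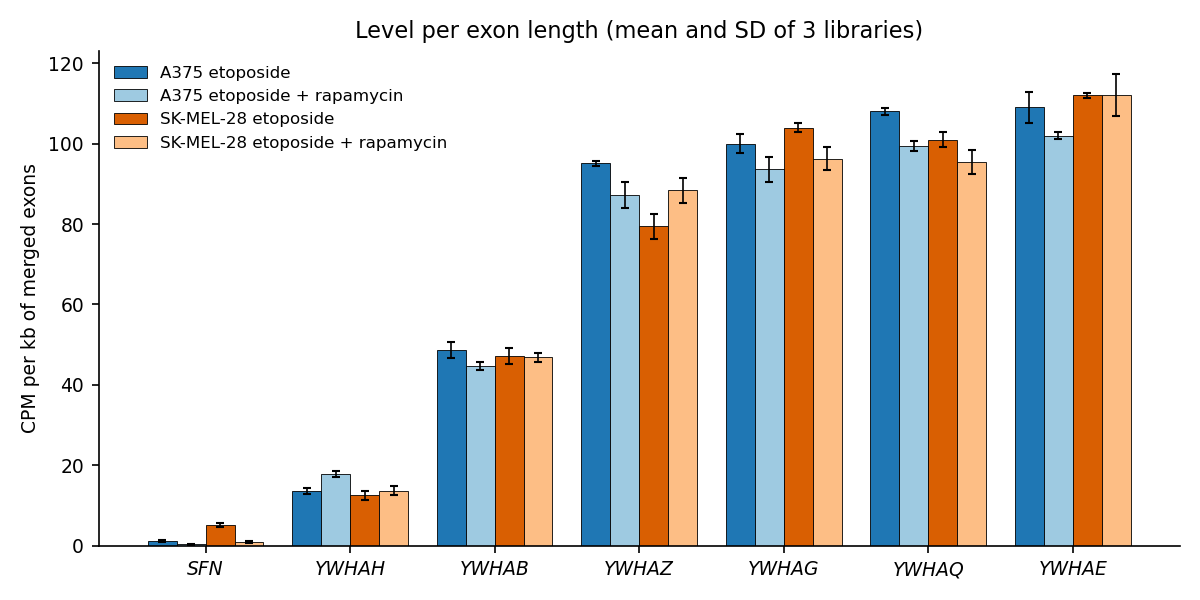
Mean level of each 14-3-3 gene in CPM per kb of merged exons (vertical axis, from 0) in the 4 groups, with error bars of 1 SD over 3 libraries. SFN, from 0.328 to 5.10 CPM per kb, is barely above the axis beside YWHAE at 102 to 112.

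The plot of mean levels per kb shows 3 tiers, with YWHAE, YWHAQ, YWHAG and YWHAZ highest, YWHAB at an intermediate level, and YWHAH and SFN lowest. The place of YWHAB rests on a merged length of 7907 bases, where its canonical transcript has 3020. Comparisons between genes hold on this scale only, and the values that follow are CPM of one gene across libraries.

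SFN was lower with rapamycin in both cell lines, and by more than any other member. In A375, SFN was at 1.80, 1.48 and 1.23 CPM with etoposide and at 0.280, 0.572 and 0.436 CPM with etoposide + rapamycin. These values rest on 35 to 55 and on 8 to 17 counts per library, and SFN entered the A375 fit through its etoposide libraries. The groups did not overlap, as for 42.6% of all genes tested in A375. The fitted log2 fold change was -1.79 (SE 0.353), that is 3.46-fold lower with a 95% interval of 2.03 to 5.89. Intervals of SFN with rapamycin describe the spread between libraries and are no test, because SFN was chosen by this fall. In SK-MEL-28, SFN was at 6.83, 7.14 and 6.04 CPM with etoposide and at 0.903, 1.71 and 1.07 CPM with etoposide + rapamycin, from 199 to 216 and 28 to 48 counts per library. Again no library of one group reached the other, as for 35.9% of all genes tested in SK-MEL-28. The log2 fold change was -2.45 (SE 0.218), 5.46-fold lower with a 95% interval of 3.93 to 7.57. The change in SK-MEL-28 minus that in A375 was -0.65 on the log2 scale with a 95% interval of -1.50 to 0.21. Leaving out 1 library at a time gave log2 fold changes from -2.05 to -1.56 in A375 and from -2.75 to -2.26 in SK-MEL-28. The value between the lines moved more, from -0.95 without SK-MEL-28 etoposide + rapamycin replicate 2 (95% interval -1.76 to -0.14) to -0.39 without A375 etoposide + rapamycin replicate 2 (-1.34 to 0.56). It was -0.87 without A375 etoposide + rapamycin replicate 1 (-1.74 to -0.005), so its size depended on single libraries. Beside SFN on chromosome 1, ZDHHC18 was higher with rapamycin, and its log2 fold change in A375 was 0.51 (SE 0.0586, adjusted p = 5.93e-05, edgeR's quasi-likelihood test). For SK-MEL-28 the value of ZDHHC18 was 0.38 (SE 0.0730, adjusted p = 0.00281). The other neighbour, GPN2, had log2 fold changes of -0.05 (adjusted p = 0.445) and 0.03 (adjusted p = 0.780).

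**Figure D2:**
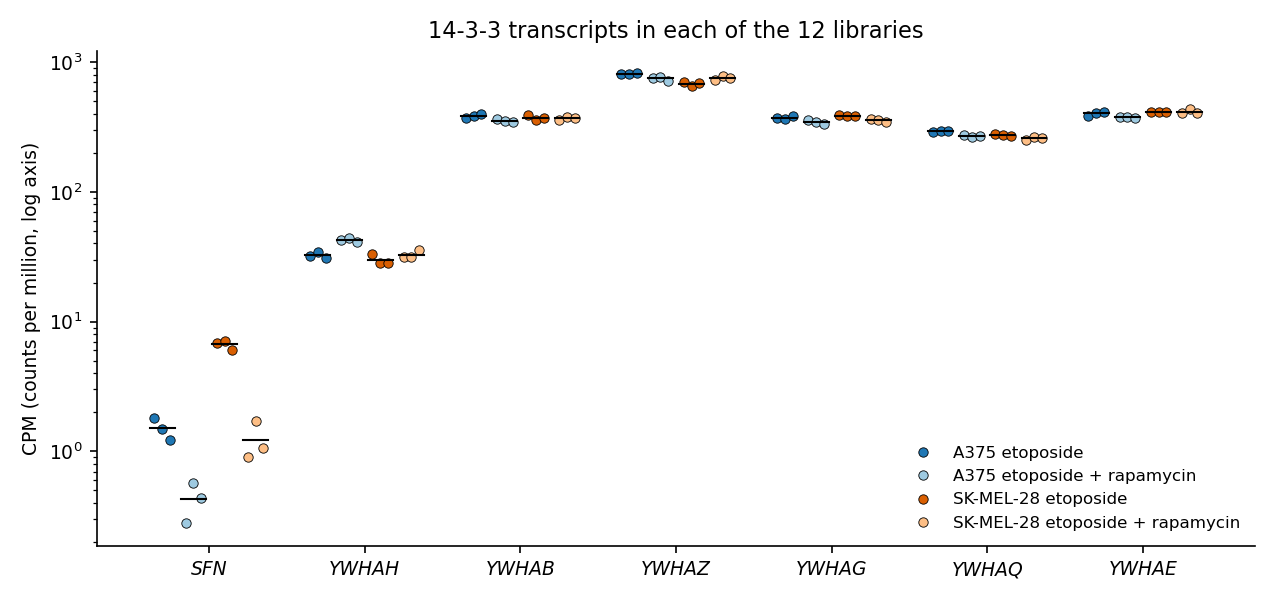
Level of each 14-3-3 gene in CPM (log axis) in each of the 12 libraries, with points for libraries coloured by group and short lines for the group means. SFN spans 0.280 to 7.14 CPM and separates by line and treatment, whereas the YWHA genes stay within narrow bands.

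The plot of values by library shows how the spread differed among members. The SD of log2 CPM within groups was 0.357 for SFN and 0.0984 for YWHAH, the least abundant genes, and between 0.0286 (YWHAQ) and 0.0493 (YWHAB) for the rest. Small changes of the YWHA genes were therefore measured more closely than changes of SFN.

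In A375, rapamycin was accompanied by more YWHAH and slightly less of the other YWHA transcripts. Of the 6 YWHA genes, 2 passed the test (adjusted p under 0.05), YWHAH upwards and YWHAQ downwards, where 28.1% of 18844 genes passed. YWHAH was at 32.2, 34.6 and 30.9 CPM with etoposide and at 42.7, 44.4 and 40.8 CPM with etoposide + rapamycin. All 3 rapamycin libraries were above all 3 etoposide libraries, and YWHAH rose 1.31-fold (log2 fold change = 0.39, SE 0.0676, adjusted p = 0.00100, edgeR). YWHAQ was at 290, 295 and 293 CPM and then at 272, 265 and 268 CPM. The groups were apart, and YWHAQ fell by 8.04% (log2 fold change = -0.12, SE 0.0404, adjusted p = 0.0416, edgeR). This call was lost when any of 5 of the 6 libraries was left out (all but etoposide replicate 1), with adjusted p from 0.0986 to 0.142. YWHAZ, the member with the most counts, was at 811, 812 and 820 CPM and then at 755, 770 and 717 CPM, a log2 fold change of -0.12 that did not pass (adjusted p = 0.0512, edgeR). YWHAB (-0.11, adjusted p = 0.0812), YWHAG (-0.10, adjusted p = 0.118) and YWHAE (-0.09, adjusted p = 0.130) did not pass either. DESeq2 called 4 of the 6 YWHA genes, and scaling by library totals called 6, with the same directions. For all 6 YWHA genes the libraries of the groups did not overlap, which held for 42.6% of all genes tested, and 5 were lower, where 21.9% of genes were apart in that direction. No YWHA gene reached the 1.5-fold change that the study also required, which 5.89% of genes met together with the adjusted p.

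In SK-MEL-28, YWHAZ was the member that passed, and in the direction opposite to its values in A375. It was 1 of 6 YWHA genes, where 19.0% of 18897 genes passed. YWHAZ was at 704, 650 and 684 CPM with etoposide and at 731, 784 and 755 CPM with etoposide + rapamycin. The lowest rapamycin library was above the highest etoposide library, and YWHAZ rose 1.11-fold (log2 fold change = 0.15, SE 0.0461, adjusted p = 0.0370, edgeR). The call was lost without etoposide replicate 2 or 3 or etoposide + rapamycin replicate 2 or 3, with adjusted p from 0.0984 to 0.150, and with scaling by library totals (adjusted p = 0.0993). YWHAH was at 33.0, 28.1 and 28.5 CPM and then at 31.6, 31.2 and 35.7 CPM. These groups overlapped, and the log2 fold change of 0.14 (95% interval -0.05 to 0.32) did not pass (adjusted p = 0.310, edgeR). YWHAG was at 388, 382 and 382 CPM and then at 365, 360 and 345 CPM (log2 fold change = -0.11, adjusted p = 0.112), and YWHAQ was at 280, 272 and 269 CPM and then at 249, 265 and 259 CPM (-0.09, adjusted p = 0.219). Both pairs of groups were apart without passing the test, although YWHAG passed with DESeq2 (adjusted p = 0.0320) and with scaling by library totals (adjusted p = 0.0403). YWHAB (-0.01, adjusted p = 0.889) and YWHAE (0.01, adjusted p = 0.951) had overlapping groups. Of the 6 YWHA genes, 3 had groups that did not overlap, against 35.9% of all genes tested, and no YWHA gene changed by 1.5-fold, where 4.99% of genes met that criterion.

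The response of YWHAZ differed between the lines. Of the 6 YWHA genes it was the 1 that passed the test of the difference, where 5.62% of 20101 genes passed, with a change in SK-MEL-28 that was 0.28 higher on the log2 scale than in A375 (SE 0.0588, adjusted p = 0.0109, edgeR). This difference passed in each left-out-library fit and under each other setting tried, with adjusted p up to 0.0497. YWHAH had a difference of -0.25 (95% interval -0.48 to -0.02) that did not pass (adjusted p = 0.201). The remaining differences lay between -0.005 for YWHAG and 0.11 for YWHAB, with adjusted p of at least 0.336.

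**Figure D3:**
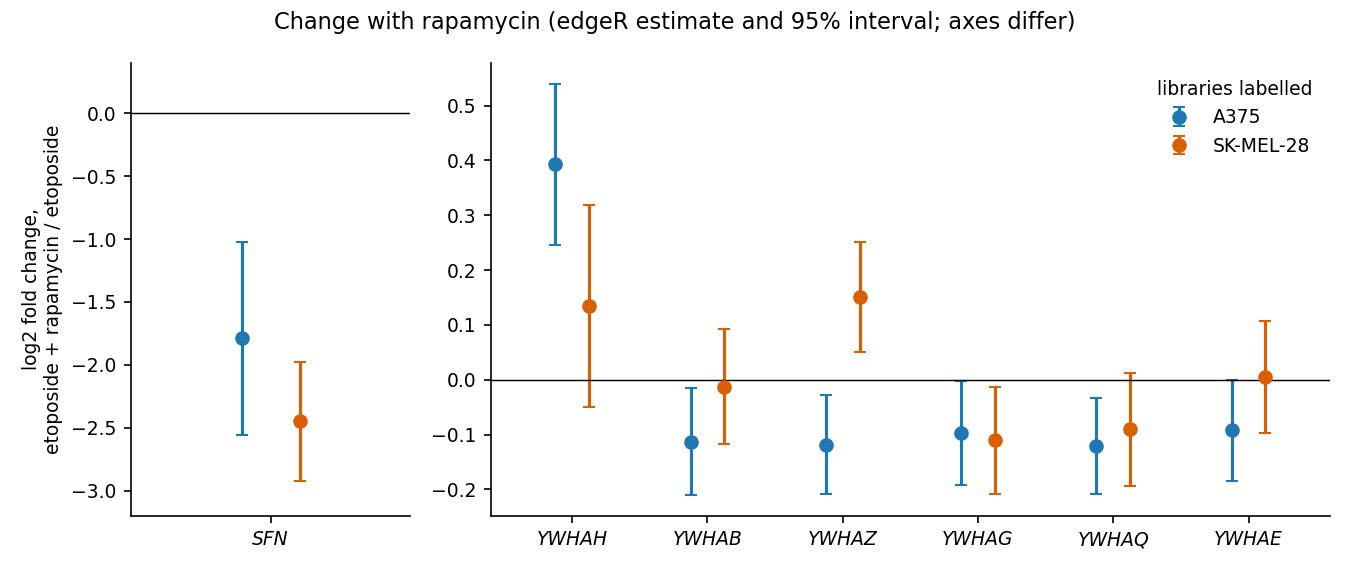
Log2 fold change of each 14-3-3 gene, etoposide + rapamycin against etoposide (vertical axes, with a wider range for SFN on the left), as the edgeR estimate with its 95% interval for A375 and SK-MEL-28. SFN lies at -1.79 and -2.45, YWHAH at 0.39 and 0.14, and YWHAZ on opposite sides of 0 at -0.12 and 0.15.

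The plot of fold changes places the members side by side. SFN stands outside the scale of the YWHA genes, whose estimates all lie between -0.12 and 0.39 on the log2 scale.

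Between the cell lines, SFN was higher in SK-MEL-28 than in A375 under both treatments, a contrast that did not enter its choice although it uses the same libraries. Under etoposide SFN was 4.42-fold higher (95% interval 3.35 to 5.84, log2 fold change = 2.15, SE 0.185, adjusted p = 1.60e-06, edgeR). The lowest SK-MEL-28 library, at 6.04 CPM, was above the highest A375 library, at 1.80 CPM. YWHAZ was 16.5% lower in SK-MEL-28 (log2 fold change = -0.26, SE 0.0450, adjusted p = 0.000679), and these were the 2 of 7 members past the test, where 31.7% of 19025 genes passed. The other 5 had log2 fold changes between -0.13 (YWHAH) and 0.05 (YWHAG), and the widest 95% interval among them, that of YWHAH, ran from -0.30 to 0.05. Under etoposide + rapamycin YWHAH and YWHAE passed, where 40.4% of 18817 genes passed, and SFN is given as a description. SFN was 2.82-fold higher in SK-MEL-28 (95% interval 1.55 to 5.12, adjusted p = 0.00875), a call lost without SK-MEL-28 etoposide + rapamycin replicate 2 (log2 fold change = 1.19, adjusted p = 0.0589). SFN entered this fit through its 28 to 48 counts in the SK-MEL-28 libraries, so its adjusted p here is a description and not support. With 8 to 17 counts in A375, SFN was not tested under the filter of 10 counts in every library. YWHAH was 23.2% lower in SK-MEL-28 (log2 fold change = -0.38, SE 0.0684, adjusted p = 0.000601) and YWHAE was 1.10-fold higher (log2 fold change = 0.14, SE 0.0428, adjusted p = 0.0209). The call on YWHAE was lost without any 1 of the 3 A375 libraries and without SK-MEL-28 replicate 2, with adjusted p from 0.0628 to 0.0702. YWHAZ had a log2 fold change of 0.01 here (95% interval -0.08 to 0.10). Under etoposide SFN was the 1 member of 7 with a change over 1.5-fold as well, where 13.0% of genes met that criterion. With rapamycin added, neither YWHAH nor YWHAE reached 1.5-fold, where 14.9% of genes met the criterion. These directions rest on libraries labelled SK-MEL-28 in which pigment markers were near 0, as given above.

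Over the 12 libraries, the genes whose log2 CPM most resembled that of SFN, among 18771 genes, were TRIM22 (Pearson r = 0.972), MSRB1 (0.971), ALPK2 (0.971), MYLK (0.968) and AK4 (0.968). TRIM22 is an interferon- and p53-inducible ubiquitin ligase, MSRB1 a methionine sulfoxide reductase, MYLK the myosin light chain kinase and AK4 a mitochondrial adenylate kinase. ALPK2, an alpha-kinase, had the fold change nearest to SFN, with log2 values of -1.76 for A375 and -1.61 for SK-MEL-28, followed by AK4 at -0.82 and -1.05. Within lines (6 libraries each), the correlations of the 5 genes with SFN were 0.907 to 0.966 in A375 and 0.962 to 0.983 in SK-MEL-28. The libraries share group structure, so these values describe a common pattern over 4 groups rather than 12 independent points. The 5 genes were chosen by their likeness to SFN in these same libraries, which also favours high values within lines. Within the family, YWHAG (0.781) was most like SFN over the 12 libraries and YWHAH (-0.804) least. Within lines the order differed, with YWHAQ most like SFN in A375 (0.863) and in SK-MEL-28 (0.902), and with YWHAH (-0.870) least in A375 and YWHAZ (-0.788) least in SK-MEL-28.

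**Figure D4:**
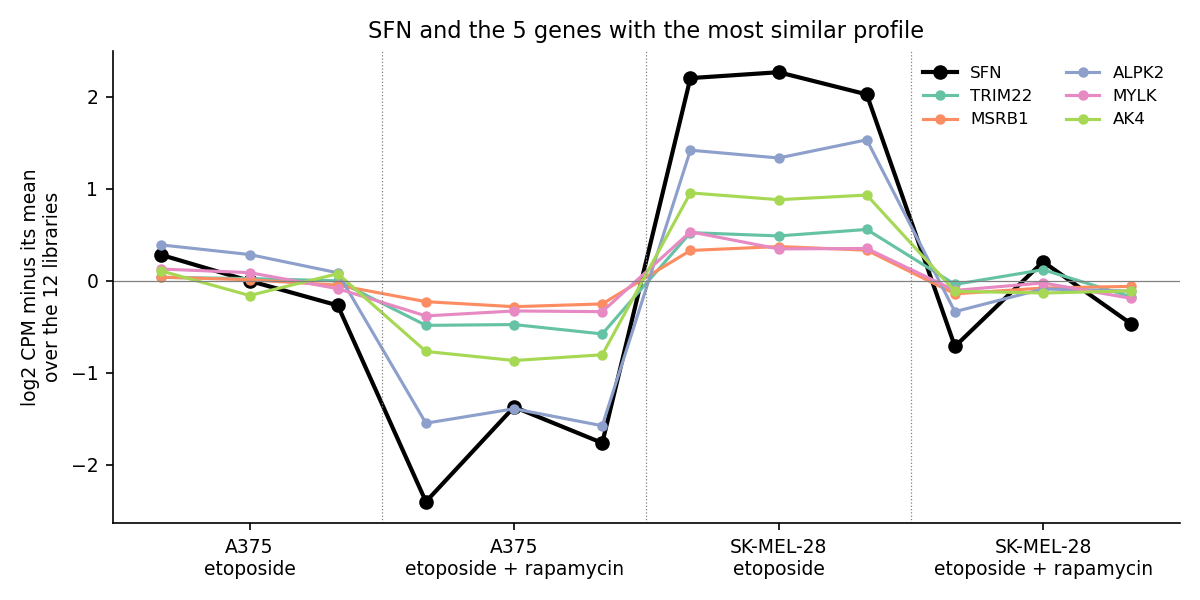
Log2 CPM of SFN and of the 5 genes most correlated with it, each minus its mean over the 12 libraries (vertical axis), in the 3 libraries of each group (horizontal axis). All 6 genes are highest in SK-MEL-28 with etoposide and lowest in A375 with etoposide + rapamycin.

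In the plot of the profiles most like SFN, the order of the 4 group levels is the same at different amplitudes. Choosing genes by their correlation with SFN favours that shared order. SFN had the widest range, and ALPK2 came next.

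Among genes that encode 14-3-3 clients, changes with rapamycin went in both directions. Of 48 client genes in A375, 13 passed upwards and 8 downwards, where 14.3% and 13.8% of all genes passed upwards and downwards, and the median log2 fold change of the list was 0.09 against -0.01 for all genes. In SK-MEL-28, 8 passed upwards and 7 downwards, where 8.83% and 10.1% of all genes did, with a median of 0.00 against 0.01. In both lines 5 client genes rose and 4 fell. IRS2, an insulin receptor adaptor, rose from 519 ± 44.5 to 772 ± 43.6 CPM in A375 (SD, n = 3) and from 659 ± 16.7 to 995 ± 47.2 CPM in SK-MEL-28, with log2 fold changes of 0.58 (adjusted p = 3.41e-05) and 0.59 (adjusted p = 2.76e-06, edgeR). HDAC5, a class IIa histone deacetylase, rose by 0.53 and 0.46 on the log2 scale (adjusted p = 1.08e-05 and 4.69e-05). MITF, the melanocyte lineage regulator, which also stands in the list of lineage markers, had log2 fold changes of -0.51 and -0.50 (adjusted p = 0.00248 and 0.00320), and LRRK2, a leucine-rich repeat kinase, had -0.47 and -0.43 (adjusted p = 0.00561 and 0.0214).

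Most of the best-known clients did not pass the test, and neither did most genes. Of all genes, 28.1% passed in A375 and 19.0% in SK-MEL-28. BAD (log2 fold change = 0.40, adjusted p = 0.00331) and TSC2, a brake on mTOR complex 1 (0.31, adjusted p = 0.00129), rose in A375, while in SK-MEL-28 they had 0.14 (adjusted p = 0.339) and 0.12 (adjusted p = 0.126). The difference between lines did not pass for either (adjusted p = 0.299 and 0.181). BRAF (a MAP kinase pathway kinase), FOXO3 and TFEB (transcription factors), YAP1 (a coactivator) and AKT1S1 (an mTOR complex 1 substrate) did not pass in either line. Their log2 fold changes ran from -0.21 (BRAF in A375) to 0.18 (TFEB in SK-MEL-28).

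Genes of entry into mitosis, a step at which 14-3-3 proteins hold back CDC25 phosphatases, were mostly higher with rapamycin in A375. There 7 of 12 rose and none fell, where 14.3% and 13.8% of all genes did, with a median log2 fold change of 0.35 against -0.01 for all genes. In SK-MEL-28, 3 rose and 2 fell, where 8.83% and 10.1% of all genes did, with a median of 0.09 against 0.01. The 3 that rose in both lines were the inhibitory kinases PKMYT1 (log2 fold change = 1.16 and 0.43) and WEE1 (0.38 and 0.37) and the stress gene GADD45A (0.32 and 0.43), all with adjusted p of at most 0.0212. PKMYT1 went from 11.8 ± 0.953 to 26.1 ± 3.96 CPM in A375 (SD, n = 3), and the difference between the lines passed (-0.73, adjusted p = 0.0194, edgeR). CDC25C, the phosphatase that starts mitosis when 14-3-3 proteins release it, rose in A375 (2.16 ± 0.344 to 3.52 ± 0.447 CPM, log2 fold change = 0.71, adjusted p = 0.0192) and had 0.12 in SK-MEL-28 (adjusted p = 0.803). CDC25B had -0.09 in A375 (adjusted p = 0.173) and fell in SK-MEL-28 (-0.30, adjusted p = 0.00265). The difference between the lines did not pass for CDC25C (-0.58, adjusted p = 0.359) or CDC25B (-0.20, adjusted p = 0.122).

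Of 26 genes for kinases that phosphorylate 14-3-3 binding sites, 7 rose and 3 fell in A375 (14.3% and 13.8% of all genes), and 6 rose and 1 fell in SK-MEL-28 (8.83% and 10.1% of all genes). PIM1 (log2 fold change = 0.57 and 0.87), PIM3 (0.44 and 0.43) and LATS2, a kinase of YAP1 (0.45 and 0.37), rose in both lines, and PIM2 (-0.27 and -0.40) fell in both. The adjusted p of these 4 genes was at most 0.0228. SGK1, which phosphorylates FOXO3, fell in A375 (log2 fold change = -0.44, adjusted p = 0.000305) and had 0.05 in SK-MEL-28 (adjusted p = 0.575), and this difference between the lines passed (0.50, adjusted p = 0.00375, edgeR).

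**Figure D5:**
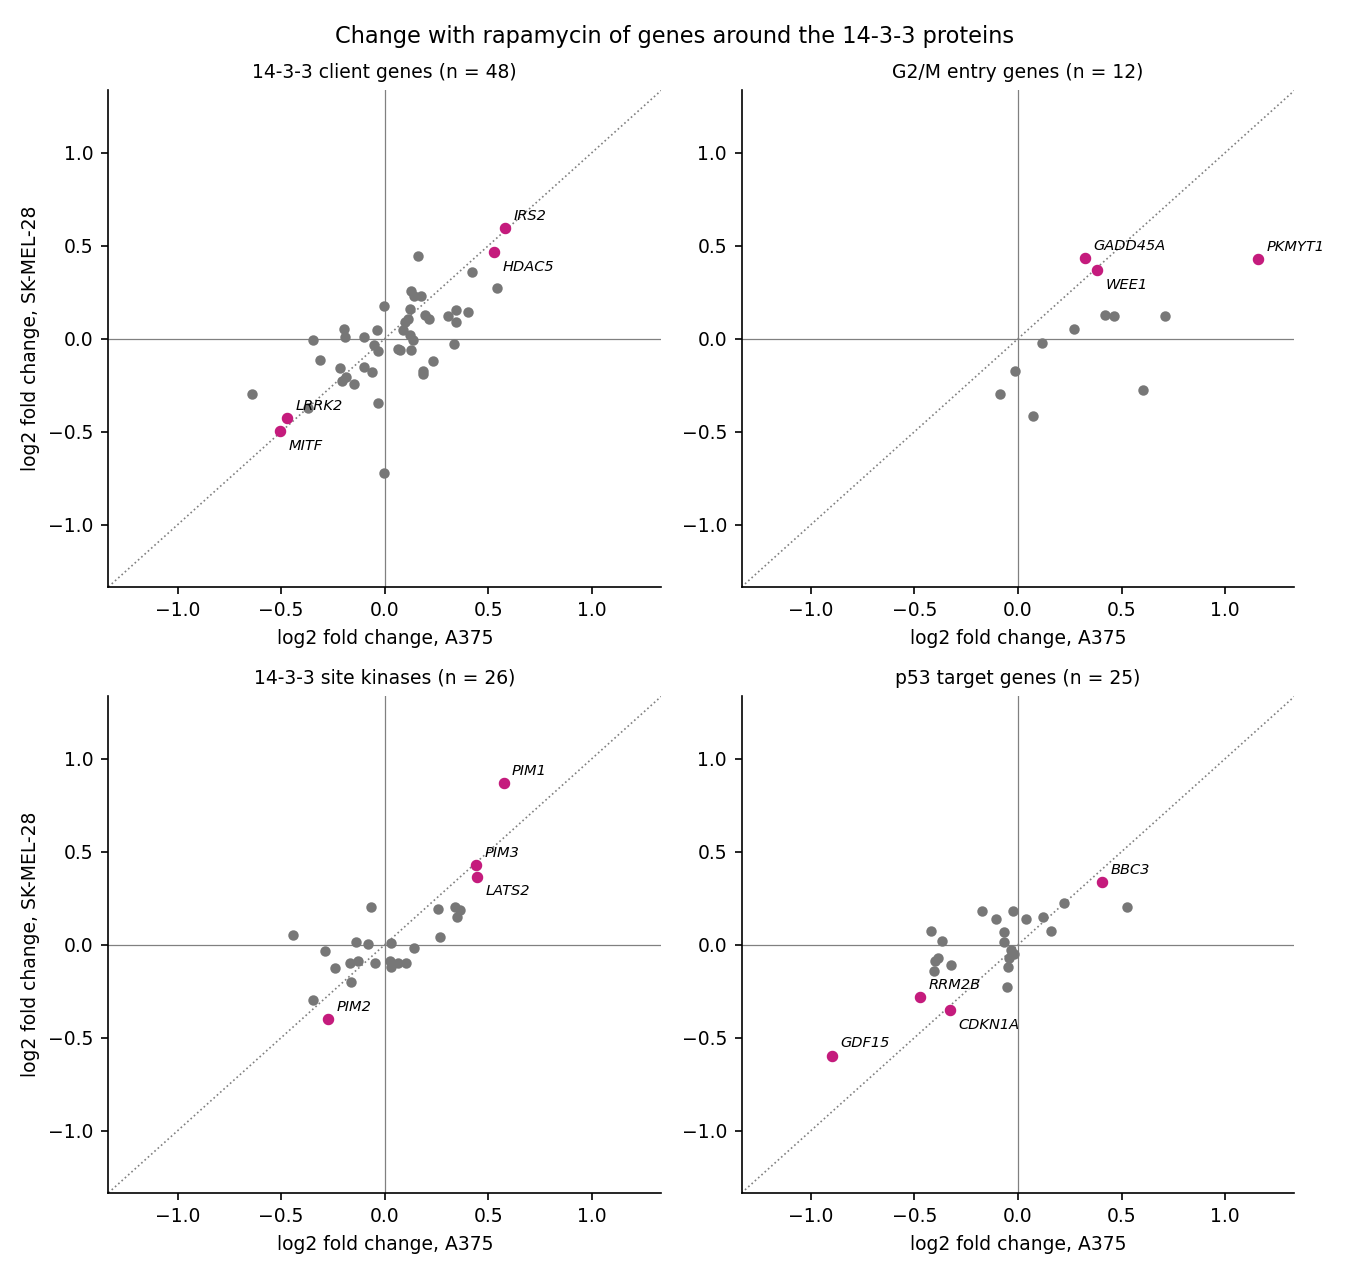
Log2 fold change with rapamycin in A375 (horizontal axes) and SK-MEL-28 (vertical axes) of every tested gene in 4 lists, with the diagonal of equal change dotted. Named points passed the test in the same direction in both lines, among them IRS2 (0.58 and 0.59), PKMYT1 (1.16 and 0.43) and GDF15 (-0.90 and -0.60).

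Genes that act upstream of SFN rose in part with rapamycin in A375. Of 9 regulators, 8 were expressed enough to be tested, all but TP63. In A375, where 14.3% of all genes rose, 4 did, namely TP73 (log2 fold change = 1.04, adjusted p = 0.00241), BRCA1 (0.41, adjusted p = 0.00807), the histone methyltransferase EZH2 (0.45, adjusted p = 0.00153) and the DNA methyltransferase DNMT1 (0.38, adjusted p = 0.000687), which are named here after their values were seen. In SK-MEL-28, 1 of the 8 rose and none fell, where 8.83% and 10.1% of all genes did. The 4 genes named for A375 had log2 fold changes there from 0.02 (DNMT1) to 0.29 (TP73) that did not pass. Of these 4, the difference between lines passed for DNMT1 (-0.35, adjusted p = 0.0137, edgeR).

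Among other targets of p53, some rose and some fell. Of 25 tested, 4 rose and 9 fell in A375, where 14.3% and 13.8% of all genes did, with a median log2 fold change of -0.07 against -0.01 for all genes. In SK-MEL-28, 3 rose and 4 fell, where 8.83% and 10.1% of all genes did, with a median of 0.01 for the list and for all genes. CDKN1A, the cell cycle inhibitor p21, went from 1640 ± 57.5 to 1300 ± 20.4 CPM in A375 and from 1970 ± 73.2 to 1550 ± 20.7 CPM in SK-MEL-28 (SD, n = 3), with log2 fold changes of -0.33 and -0.35 (adjusted p = 9.04e-05 and 3.84e-05, edgeR). GDF15, a stress-induced cytokine (-0.90 and -0.60), and RRM2B, a subunit of ribonucleotide reductase (-0.47 and -0.28), also fell in both lines, with adjusted p of at most 0.00334. BBC3, which encodes the apoptosis promoter PUMA, rose in both (0.40 and 0.34, adjusted p = 0.000252 and 0.00801).

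SFN is usually abundant in epithelial cells. Other epithelial genes passed the test about as often as all genes, of which 28.1% passed in A375 and 19.0% in SK-MEL-28. Of 21, 11 were tested in A375, where 2 rose and 1 fell (14.3% and 13.8% of all genes), and 10 in SK-MEL-28, where none rose and 2 fell (8.83% and 10.1% of all genes). KRT8, a keratin of simple epithelia, fell in SK-MEL-28 (log2 fold change = -0.21, adjusted p = 0.0106, edgeR) and had 0.14 in A375 (adjusted p = 0.0675). Of 7 lineage markers tested, 3 fell in A375 (13.8% of all genes) and 1 in SK-MEL-28 (10.1% of all genes), MITF among them in both. DCT, which fell in A375, was near the floor there, at 0.714 CPM with etoposide and 0.215 CPM with rapamycin added. The part of cell makeup in the change of SFN was not tested.

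Between the cell lines under etoposide, most of the same lists had genes in both directions. The p53 targets that passed were mostly higher in SK-MEL-28, and among the SFN regulators only 1 gene passed. Of 48 client genes, 14 were higher and 15 lower in SK-MEL-28, where 15.2% and 16.5% of all genes were. The client genes with the largest changes were TBC1D4, a regulator of glucose transporter traffic (log2 fold change = 1.01, adjusted p = 6.62e-08), and, on the lower side, REM1 (-1.28, adjusted p = 0.00154), TFEB (-1.26, adjusted p = 0.0110) and FOXO1 (-0.95, adjusted p = 2.32e-06). TFEB was near the floor, at 1.88 ± 0.390 CPM in A375 and 0.784 ± 0.323 CPM in SK-MEL-28. Of 25 p53 target genes tested, 13 were higher and 4 lower, led by GDF15 at 42.5 ± 1.38 CPM in A375 and 310 ± 28.7 CPM in SK-MEL-28 (SD, n = 3, log2 fold change = 2.87, adjusted p = 1.46e-11, edgeR). CDKN1A was higher as well (0.27, adjusted p = 0.000682), and the 4 lower genes were MDM2, FAS, PHLDA3 and PMAIP1. Of 12 genes of mitotic entry, 5 were higher and 2 lower, and of 26 site kinases 7 were higher and 11 lower, with PIM1 (-1.06) and SIK1 (-0.87) lowest. Among 8 SFN regulators tested, the 1 that differed was RFWD2, which encodes the ubiquitin ligase COP1 (-0.37, adjusted p = 0.00306). Of 11 epithelial genes tested, KRT8 (1.11), KRT18 (0.65) and S100A2 were higher and 5 were lower, among them LAD1 (-1.81), so the list did not move one way with SFN. ELF3, also among the lower genes (-1.92, SE 0.589, adjusted p = 0.0246, edgeR), was near the floor. It was at 1.98 ± 1.17 CPM in A375 and 0.517 ± 0.391 CPM in SK-MEL-28, and entered this fit through its A375 libraries.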

How the data were processed

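PolyA-enriched RNA from 12 libraries was sequenced on an Illumina instrument. Reads were mapped to GRCh38 with HISAT2 and expression was estimated by StringTie against Ensembl release 90. The values the authors deposited are whole-number counts of genes, neither normalized nor pooled. How StringTie coverage became counts is not stated, so precision is given by the spread between libraries and no counting intervals are printed. The 5 rows without a gene (at most 0.00529% of a library's counts) were left out.

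Counts were tested with edgeR 4.0.16 in R 4.3.3 (filterByExpr with a minimum count of 10, TMM, glmQLFit and glmQLFTest), and p-values were adjusted by Benjamini-Hochberg across every gene of a fit. Treatments were compared within a line (6 libraries), lines within a treatment (6 libraries), and the 2 responses in a fit of 12 libraries. SE was the fold change on the log2 scale over the root of F. CPM used TMM over the 12 libraries, and merged exon lengths came from GENCODE 44. Where a call also needed a fold change, it was over 1.5.

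The members and gene lists were chosen with earlier results of these data known. Of each list the text names a fixed set of genes, up to 4 genes that passed in the same direction in both lines with the largest smaller change, and some of the up to 4 with the largest change between lines under etoposide. Some further genes are named to show the other direction within a list. Genes like SFN were ranked by Pearson correlation of log2 CPM (prior count 2, mean of at least 10 counts). The values of 2 named genes are not reported here, and counts over lists include them. Groups came from the labels. Alternatives were DESeq2 1.42.0, RLE factors, library totals, filters of 1 count in any and 10 counts in every library, a replicate block, counts halved, pseudogene counts added, one fit of all libraries, longest transcript length, no fold threshold and each library left out. The edgeR fits were tested on simulated counts.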

Additional observations from a re-analysis of the deposited data

Results flagged for a closer look

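YWHAZ was the 1 YWHA gene whose change with rapamycin passed a test of the difference between A375 and SK-MEL-28, where 5.62% of all genes passed. The change in SK-MEL-28 was 0.278 higher on the log2 scale than in A375 (adjusted p = 0.0109, edgeR's interaction test). All 3 SK-MEL-28 libraries with etoposide + rapamycin lay above the 3 with etoposide alone, and all 3 such A375 libraries lay below. Groups were apart for 35.9% of all genes in SK-MEL-28 and 42.6% in A375. The fall in A375 did not pass (adjusted p = 0.0512, edgeR). The rise in SK-MEL-28 did (adjusted p = 0.0370), but several single libraries, left out, removed that call. Between lines, the log2 fold change of YWHAZ was -0.26 under etoposide and 0.01 under etoposide + rapamycin. Of the 50-base stretches of YWHAZ, 13.3% also occur in other genes, and its pseudogene rows held few counts.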

How the results depend on the processing

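The number of YWHA genes past the test in A375 (2) was 4 with DESeq2, 6 with library totals as scaling, 1 with the filter of 1 count in any library, 1 with the replicate block and 1 to 5 with 1 library left out. In SK-MEL-28 (1) it was 2 with DESeq2, 0 with the filter of 1 count, 0 with the replicate block and 0 to 1 with 1 library left out. Under etoposide + rapamycin, the number of members with adjusted p under 0.05 between lines (3, with SFN as a description) was 1 to 3 with 1 library left out. YWHAH in A375, the difference of YWHAZ, and SFN and YWHAZ between lines under etoposide kept their direction and passed in every alternative. Same-numbered libraries had correlations of -0.030 to 0.021 between their deviations, so the numbers did not pair them, and the block changed no other call than those of YWHAQ in A375 and YWHAZ in SK-MEL-28, where the cause was not tested. Without a fold change threshold, genes called numbered 5295 in A375, 3582 in SK-MEL-28, 1130 for the difference, and 6037 and 7597 between lines under etoposide and under etoposide + rapamycin, against 1109, 943, 326, 2477 and 2813 with it. Log2 values near 0 changed sign: YWHAE in SK-MEL-28 (0.006) was -0.028 with library totals and -0.031 to 0.029 with 1 library left out, YWHAB there (-0.013) was -0.040 to 0.023, YWHAG in the difference (-0.005) was -0.037 to 0.021, and YWHAZ between lines under etoposide + rapamycin (0.013) was -0.016 to 0.036. Longest transcripts moved 20 of 28 levels by more than 1 SD, library totals 6 and added pseudogene counts 0. SFN in A375 with etoposide + rapamycin rests on at most 17 counts per library, which limits its fold. The filter of 10 counts in every library left no value for SFN in A375, in the difference or between lines under etoposide + rapamycin.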
